A study of Mus musculus with 2 samples.

Results

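The 10 genes described here encode the core transcription factors of the heart: Gata4, Gata5, Gata6, Nkx2-5, Tbx5, Tbx20, Tbx2, Hand1, Hand2 and Meis1. They were chosen by name from the GATA, T-box, Nkx, Hand and Meis families, by a rule that uses no measured value, though with earlier results of these data known, and make up 10 of the 55536 mouse genes in the tables, 22028 of which are protein coding. All 10 were found, each with a single gene identifier. Total RNA, which includes unspliced and non-polyadenylated RNA, was sequenced from heart tissue of male B6CASTF1/J mice at postnatal day 4. B6CASTF1/J is a first-generation hybrid of the C57BL/6J and CAST/EiJ strains, and no other allele, agent or treatment is named in the labels. The 2 hearts form 1 group, so no contrast between conditions exists. They come from animals with different numbers and sample records, yet the labels give 1 donor record for both, and if both came from 1 animal the spread between them is technical alone.

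GATA factors are zinc-finger proteins that bind the letters GATA, and T-box, Nkx and Hand proteins are DNA-binding factors of the T-box, homeodomain and basic helix-loop-helix classes. Gata4, Nkx2-5 and Tbx5 bind DNA together with one another and with Mef2 and Srf at genes of contraction, conduction and natriuretic peptide secretion. They form the heart field and the chambers in the embryo and maintain the muscle programme after birth. Meis1, a homeodomain protein of the TALE class, is known for its part in the withdrawal of heart muscle cells from the cell cycle soon after birth.

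The mouse genes held 31512574 expected counts in replicate 1 and 35743975 in replicate 2. The biological coefficient of variation between the hearts over 16271 genes that passed a low-count filter was 15.2%, and all 10 factors passed that filter. All 10 cardiomyocyte markers, among them Myh6, Tnnt2 and Actc1, were expressed in both hearts, with a summed level of 33045 and 30577 TPM, while 3 of 10 skeletal muscle markers were. These were Acta1 and Ckm, which heart muscle also makes, and Myh8 at 1.37 and 1.25 TPM. Acta1 was past 2-fold between the hearts, at 539 and 155 TPM. Of the 10, only the factors Myod1 and Pax7 had 0 counts in both hearts, and the factor Myog had 2 and 8. Of 10 lung and liver markers, 2 were expressed, Ahsg at 4.08 and 4.13 TPM and Alb at 2.0 and 1.69. Sftpc was past 2-fold between the hearts, with 33 and 12 counts. Levels below are TPM (abundance scaled for transcript length and library size) in replicate 1 and then in replicate 2. In whole tissue, fewer cells of a type and less RNA per cell cannot be told apart.

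The factors spanned a wide range of levels, with Tbx20, Gata4, Gata6 and Nkx2-5 highest and Gata5 and Hand1 lowest. Of the 10, 8 were expressed, taken as 1 TPM or more in each heart, against 53.9% of protein-coding genes. The exceptions, Gata5 and Hand1, were below 1 TPM in both hearts. Between neighbours in the order of mean level, 8 of 9 pairs did not overlap between the hearts. The exception was Meis1 with Tbx5. A second quantification of the same libraries, made against the same annotation, kept the order of the means for 9 of 9 pairs, but its hearts did not overlap for only 6 of 9. There, Gata4 lay above Tbx20 and Nkx2-5 above Gata6 in replicate 1, and Tbx5 above Meis1 in replicate 2.

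**Figure D1:**
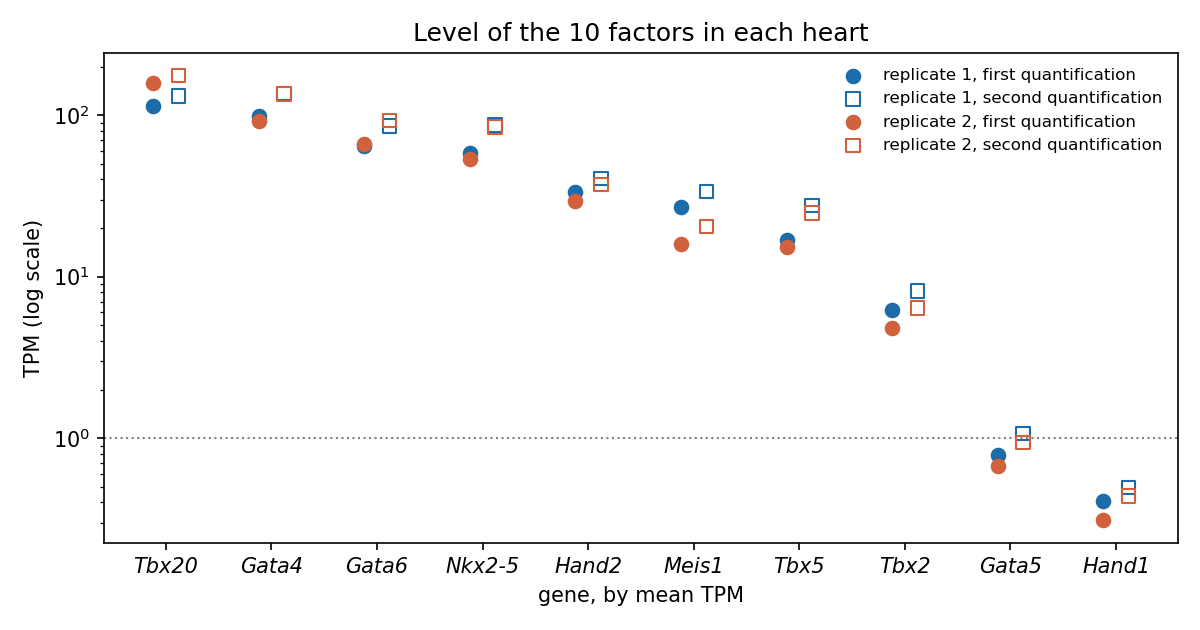
TPM on a log axis for each of the 10 factors, in order of mean level, with filled circles for the first quantification and open squares for the second, in replicate 1 (blue) and replicate 2 (orange). The dotted line marks 1 TPM. Gata5 and Hand1 lie under it in the first quantification, and Meis1 and Tbx20 show the widest gaps between hearts.

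Gata4 (ENSMUSG00000021944.15, minus strand of chromosome 14 from 63198922 to 63271692, mm10), which activates contractile and natriuretic peptide genes, was at 99.0 and 91.7 TPM. Its mean of 95.4 ± 5.16 TPM (SD, n = 2) ranked 742 among protein-coding genes. Gata6, its closest partner in heart muscle, was at 64.3 and 66.0 TPM, with a mean of 65.2 ± 1.24. Gata4 exceeded Gata6 in both hearts, by 1.54 and 1.39 times. Together these genes held most of the family's TPM, 56.5% for Gata4 and 38.7% for Gata6 on average. Gata2, an endothelial and blood factor, followed at 6.86 and 7.04 TPM. Gata5 (ENSMUSG00000015627.5, minus strand of chromosome 2 from 180325133 to 180334699), known from the embryonic endocardium, was at 0.79 and 0.67 TPM from 61 counts in each heart. Gata4 thus stood 125 and 137 times above Gata5. Gata3 lay below 1 TPM as well, and Gata1, the red cell factor, was at 0 and 0.06 TPM.

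Annotated Gata4 transcripts that span the whole coding sequence differ by a shift of 3 bases at 1 exon edge. This exon covers 63204589 to 63204758 in Gata4-201 and 63204589 to 63204755 in Gata4-202, and the reading frame is kept, so the coding lengths are 1326 and 1323 bases. The sequences across that junction, from the GENCODE M21 transcripts, are shown because they are the only bases that distinguish the coding parts of these forms, with the 3 extra bases in capitals and 24 shared bases on each side.
Gata4-201: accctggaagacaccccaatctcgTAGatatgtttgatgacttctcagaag
Gata4-202: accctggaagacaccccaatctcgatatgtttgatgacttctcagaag
The longer form took 20.8% and 25.8% of the TPM of the pair in the first quantification and 46.1% and 43.4% in the second. The shorter form was ahead in both hearts in each quantification, and the size of its lead differed between quantifications by more than between hearts. Over all 6 Gata4 transcripts the first quantification placed Gata4-202 in the lead, at 46.0% and 48.7%. The second gave the lead to Gata4-205, a short 5′ fragment of 683 bases with 34 annotated coding bases, at 32.1% and 29.8%. The short 5′ fragments that begin at distal first exons, Gata4-204 to Gata4-206, took 29.25% and 24.05% of TPM but 6.90% and 5.29% of expected counts. The leading Gata4 transcript therefore depended on the quantification, and by expected counts it was Gata4-202.

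Tbx20 (ENSMUSG00000031965.15, minus strand of chromosome 9 from 24718138 to 24774303), required for chamber growth and for heart muscle function in the adult, was the highest of the 10. Its level was 114 and 158 TPM, with a mean of 136 ± 30.9 TPM (SD, n = 2) and rank 501 among protein-coding genes. Tbx5 (ENSMUSG00000018263.11, plus strand of chromosome 5 from 119832668 to 119885219), which acts in the atria, the left ventricle and the conduction system, was at 17.0 and 15.2 TPM, with a mean of 16.1 ± 1.24. Tbx20 stood above Tbx5 by 6.72 times in replicate 1 and 10.4 times in replicate 2. Tbx2 (ENSMUSG00000000093.6, plus strand of chromosome 11 from 85832551 to 85841948), a repressor of chamber genes in the atrioventricular canal, was lower at 6.24 and 4.84 TPM, with a mean of 5.54 ± 0.990. Its paralogue Tbx3, a conduction system repressor, was at 5.32 and 6.63 TPM, so the order of Tbx2 and Tbx3 differed between the hearts. Of the 17 T-box genes measured, 6 were expressed. Mga, a large protein with a T-box that belongs to a repressor complex, was the second highest at 32.8 and 24.2 TPM. Tbx20 held 62.2% and 73.1% of the family's TPM.

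**Figure D2:**
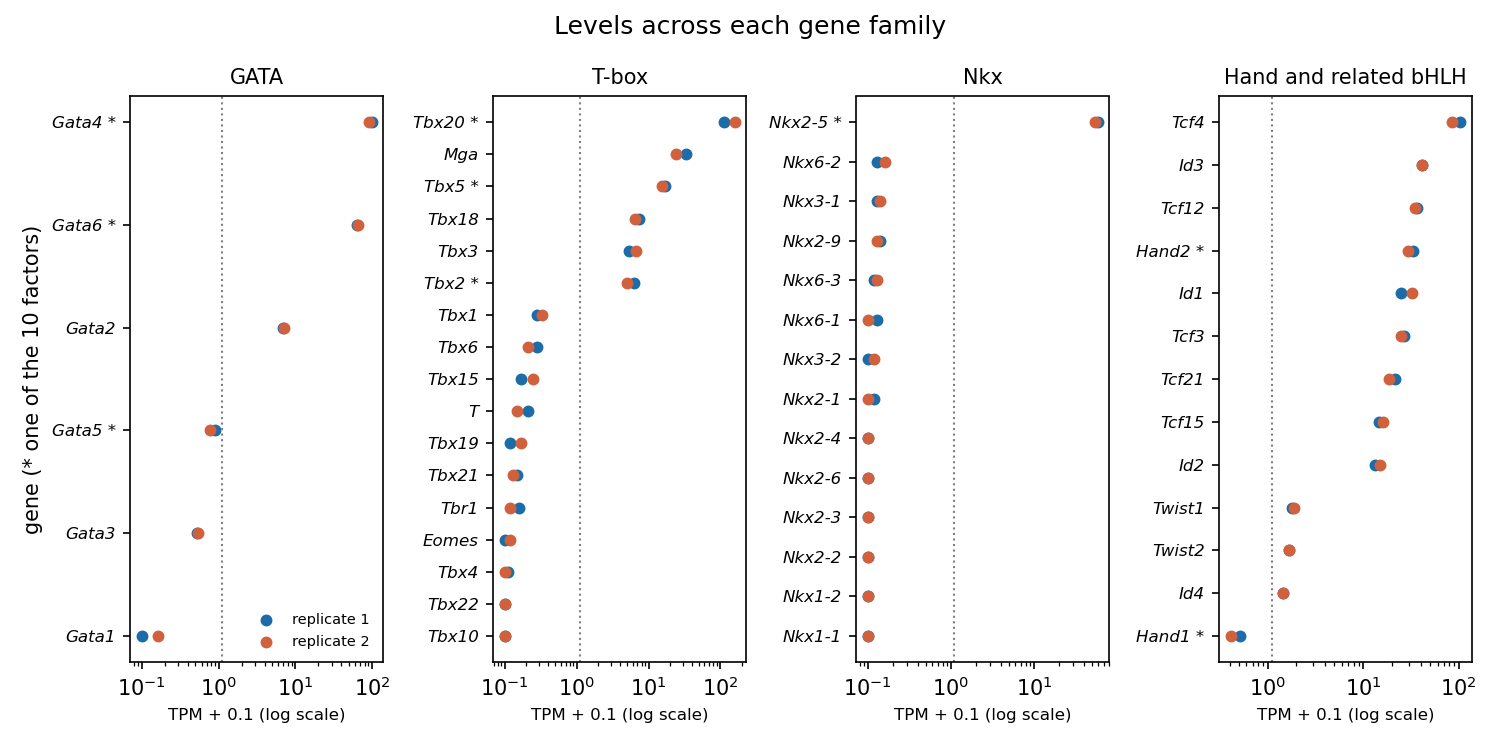
TPM + 0.1 on a log axis for every measured gene of the GATA, T-box and Nkx families and for the list of Hand and related helix-loop-helix factors, in replicate 1 (blue) and replicate 2 (orange), with the 10 factors starred and the dotted line at 1 TPM. In the Nkx panel Nkx2-5 is the only gene right of the line, while 12 of 13 helix-loop-helix genes lie right of it, Hand1 being the exception.

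Tbx20 has a long and a short annotated coding form that part after a shared exon. Tbx20-201 goes on into the exon at chr9:24727763-24727872 and Tbx20-202 into a final exon at chr9:24740248-24740703, both on the minus strand. The bases at this branch are shown because they separate a coding sequence of 1335 bases from one of 891. Lower case marks the last 24 shared bases, and capitals the bases of the exon used by that form alone, with the short form printed to the end of its stop codon.
Tbx20-201: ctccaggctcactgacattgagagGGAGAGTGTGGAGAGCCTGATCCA
Tbx20-202: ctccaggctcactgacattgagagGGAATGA
The short form held 36.7% and 39.1% of the TPM of the pair, against 29.6% and 26.9% in the second quantification. Tbx20-201 led in both hearts by each measure. By expected counts, which favour long transcripts, the short form held 9.89% and 10.8%, and its length of 1801 bases compares with 9091 for Tbx20-201. Tbx5-201 led the 3 Tbx5 transcripts in both hearts in each quantification, with 78.2% of TPM on average in the first and 63.4% in the second. Tbx5-202 took 34.6% on average in the second.

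Nkx2-5 (ENSMUSG00000015579.5, minus strand of chromosome 17 from 26838664 to 26845009), a homeodomain factor present in heart muscle from its first stages, was at 58.4 and 53.8 TPM. The mean was 56.1 ± 3.27 TPM (SD, n = 2). Nkx2-5 held 99.7% of the family's TPM in both hearts. Of the other 13 Nkx genes, 6 had 0 counts in both hearts and none reached 0.1 TPM in the first quantification. In the second, Nkx2-1 was listed at 0.25 and 0.20 TPM. Nkx2-5 was the only gene of the family at 1 TPM or more in each quantification. The ratio of Gata4 to Nkx2-5 was 1.69 in replicate 1 and 1.70 in replicate 2. Nkx2-5-201 led in both quantifications, but Nkx2-5-202, with its start upstream, held 2.28% and 0.46% of TPM in the first and 31.5% and 33.0% in the second.

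Hand2 (ENSMUSG00000038193.4, plus strand of chromosome 8 from 57320983 to 57324633), needed for the right ventricle and for the outflow tract, was at 33.3 and 29.2 TPM, with a mean of 31.3 ± 2.89 TPM (SD, n = 2). Hand1 (ENSMUSG00000037335.13, minus strand of chromosome 11 from 57828705 to 57832818), whose expression marks the embryonic left ventricle, was at 0.41 and 0.31 TPM from 15 and 16 counts. Hand2 was higher than Hand1 by 81.2 and 94.3 times. With so few counts the leading Hand1 transcript differed between the hearts, Hand1-203 in replicate 1 and Hand1-201 in replicate 2. Among the other factors of the same class and their partners, Tcf4, a partner of Hand proteins in dimers, was highest at 104 and 84.1 TPM. Id3, an inhibitor of such dimers, was at 41.3 and 41.1 TPM. Of this list of 13 genes, 12 were expressed, and Hand1 was the exception.

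The 250 bases before the RefSeq start of Hand2 (GRCm38.p6, the same build as mm10, chr8:57320733-57320982, plus strand) are shown because Hand2 was the only 1 of the 5 factors with a RefSeq promoter window to hold both a GATA and an Nkx2-5 core match. Capitals mark the matches on either strand.
Hand2: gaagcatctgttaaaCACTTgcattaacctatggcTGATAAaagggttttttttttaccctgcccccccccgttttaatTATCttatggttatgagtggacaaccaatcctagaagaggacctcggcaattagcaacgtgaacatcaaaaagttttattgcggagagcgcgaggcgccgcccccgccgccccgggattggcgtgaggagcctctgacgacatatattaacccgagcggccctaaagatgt
GATA (reverse complement TATC) occurred at 214 bases before the start on the plus strand, inside TGATAA (reverse complement TTATCA), and at 171 bases on the minus strand. AAGTG (reverse complement CACTT), the core letters bound by Nkx2-5, occurred at 235 bases on the minus strand. Of all 32851 RefSeq windows of this length, 53.6% held GATA, 7.94% TGATAA and 40.7% AAGTG. The letters GGTGTGA (reverse complement TCACACC), read by T-box factors and found in 3.33% of windows, did not occur in any of the 5, which were Hand2, Tbx20, Gata5, Meis1 and Nkx2-5. TGACAG (reverse complement CTGTCA), read by Meis factors and found in 15.9% of windows, occurred once, at 19 bases before the RefSeq start of Nkx2-5, which also held 1 GATA on the minus strand at 118 bases. The windows of Tbx20, Gata5 and Meis1 held none of the 5 motifs. A match describes letters alone, and its absence says only that they are not in this window.

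The Tbx20 window (chr9:24774304-24774553, minus strand) is shown for contrast in base composition, with CG pairs in capitals.
Tbx20: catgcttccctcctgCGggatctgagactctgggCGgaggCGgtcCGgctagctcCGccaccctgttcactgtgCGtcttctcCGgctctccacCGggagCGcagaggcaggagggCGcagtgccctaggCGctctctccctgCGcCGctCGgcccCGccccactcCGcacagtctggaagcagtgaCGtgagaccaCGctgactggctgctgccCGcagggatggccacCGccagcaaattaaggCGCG
It was 68.8% G or C, against 49.2% for Hand2, and held 22 CG pairs against 15. A lower G or C content was found in 89.0% of all windows for Tbx20 and 38.1% for Hand2.

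Meis1 (ENSMUSG00000020160.18, minus strand of chromosome 11 from 18879817 to 19018985) was at 27.0 and 15.9 TPM, with a mean of 21.4 ± 7.86 TPM (SD, n = 2). Replicate 1 was higher than replicate 2 by more than for any of the other 9 factors. Of the 11 TALE genes measured, 10 were expressed. Meis1 held 18.6% and 12.8% of the TPM of this family, and its close paralogue Meis2 11.3% and 11.2%. The second quantification turned the order of these paralogues, with Meis2 at 33.7 and 21.7 TPM and Meis1 at 33.6 and 20.4, so which of them is higher cannot be given.

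The transcripts of Meis1 also differed between the hearts. Meis1-201, with 1170 coding bases, was listed at 8.28 and 2.72 TPM, and in the second quantification at 14.0 and 9.71. Meis1-209, with 1395 coding bases and a different end, was listed at 0 and 3.01 TPM, and in the second quantification at 0 and 0.98. The bases at the branch, in the exons at chr11:18883988-18884082 (Meis1-201) and chr11:18880428-18881922 (Meis1-209) on the minus strand, are shown because they give these forms different ends of the protein. Lower case marks the last 24 shared bases and capitals the first 24 bases that follow in each.
Meis1-201: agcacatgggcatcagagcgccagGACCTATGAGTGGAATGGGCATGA
Meis1-209: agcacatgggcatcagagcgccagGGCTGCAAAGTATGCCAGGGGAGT
Among the spliced forms that either hold or skip the Meis1-201 exon (Meis1-201 and Meis1-203 against Meis1-202, Meis1-207 and Meis1-209), those with it took 83.6% and 67.0% of TPM in the first quantification and 74.2% and 75.5% in the second. The lower share in replicate 2 in the first tables did not appear in the second. The leading Meis1 transcript in the first quantification was Meis1-201 in replicate 1 and Meis1-203, which is annotated as a processed transcript with no coding sequence, in replicate 2. In the second quantification Meis1-201 led in both hearts, at 41.6% and 47.6%.

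To compare the hearts, the log2 ratio of replicate 2 over replicate 1 was taken from expected counts with TMM library sizes, with exact binomial 95% intervals that cover counting error only. With 1 heart against 1 there is no test. None of the 10 factors was past 2-fold (0 of 10), against 3.06% of filtered genes and 1.58% of the protein-coding ones among them. At 1.5-fold there were 2 of 10, Tbx20 and Meis1, against 12.3% of filtered genes and 5.09% of protein-coding genes with 100 counts or more on average. Tbx20 had 16154 and 26697 counts and was 1.52-fold higher in replicate 2, a log2 ratio of 0.61 (0.58 to 0.64). Of those well-covered protein-coding genes, 2.33% had a higher ratio. Meis1 had 1796 and 1257 counts and was 1.55-fold lower in replicate 2, a log2 ratio of -0.63 (-0.74 to -0.53), with 2.04% of these genes lower still. The gap of both genes was therefore outside counting error and near the edge of the spread over these well-covered protein-coding genes. Whether they passed 1.5-fold depended on the setting. Tbx20 fell below it by TPM (log2 ratio 0.47) and by total-count scaling (0.54). Meis1 stayed past it there (-0.76 and -0.70), but fell below it, at -0.51, with protein-coding transcripts only.

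The other 8 factors lay closer together. Gata6, with 4019 and 5293 counts, was next at 0.28 (0.22 to 0.34), but its TPM ratio was only 0.04. Gata4, with 5678 and 6674 counts, had a log2 ratio of 0.12 (0.07 to 0.17), but its TPM ratio was -0.11. The effective length of Gata4, by which TPM is scaled, was 2361 bases in replicate 1 and 2526 in replicate 2. That of Gata6 was 2574 and 2782 bases. Tbx2 was at -0.24 (-0.42 to -0.06). The intervals of Nkx2-5 at 0.01, Tbx5 at 0.00, Hand2 at -0.06, Gata5 at -0.11 and Hand1 at -0.02 included 0. The sign of Nkx2-5 changed with TPM and with total-count scaling, that of Tbx5 with DESeq2 size factors, ERCC scaling and the second quantification, and that of Hand1 with ERCC scaling and the second quantification. Scaling by TPM moved the median of all filtered genes by -0.13 on the log2 scale. No direction can be given for these 3 genes, for Gata4, or for Hand2 and Gata5, whose intervals included 0.

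**Figure D3:**
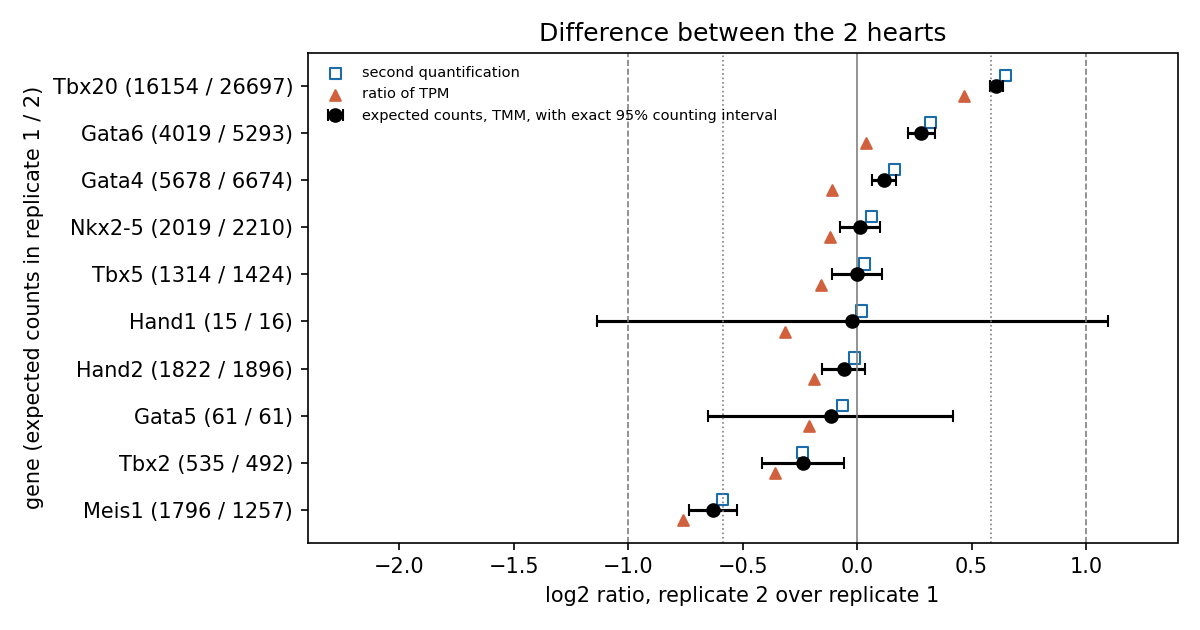
Log2 ratio of replicate 2 over replicate 1 for each factor, with the expected counts of both hearts beside its name. Circles with bars are TMM-scaled counts and exact 95% counting intervals, squares the second quantification and triangles the TPM ratio, and dashed and dotted lines mark 2-fold and 1.5-fold. The circles of Tbx20 and Meis1 lie past 1.5-fold on opposite sides, and no circle passes 2-fold.

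Markers of some other heart cells also differed between these hearts. Of 10 fibroblast markers, 9 were higher in replicate 2, with a median log2 ratio of 0.54 and summed levels of 1478 and 2021 TPM. Of 10 epicardial markers, 9 were higher (median 0.30, summed levels 77.9 and 87.8 TPM), and 9 of the 9 endocardial and valve markers that passed the filter were higher (median 0.19, 124 and 128 TPM). Of 10 atrial markers, 7 were lower, but the median was only -0.10. Their summed levels of 3368 and 2143 TPM differed mostly through Nppa, at 1620.4 and 665. The median was 0.05 for endothelial and for conduction markers, and 0.10 for mural and for macrophage markers. Of the 10 mural markers, 7 were higher in replicate 2 and 3 lower. Their summed levels were 659 and 951 TPM, with Acta2 at 341 and 631. For the 7 nerve and Schwann cell markers that passed the filter the median was 0.35. Cardiomyocyte markers had a median of -0.04, and none of the lists named in this paragraph held a gene at 0 counts in both hearts. Their part in the differences of Tbx20, Meis1 and Gata6 was not tested.

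Gata6, Tbx20 and Meis1 have 6 annotated transcripts that keep an intron, and all 6 were lower in replicate 2. Of all such transcripts with a mean of at least 10 counts, 73.1% were lower there. Those of Gata6 took 17.6% of its TPM in replicate 1 and 11.5% in replicate 2. For Tbx20 the shares were 7.98% and 4.25%, and for Meis1 20.5% and 14.7%. The share was lower in replicate 2 in all 3 genes, as it was in 70.1% of 7189 genes, where the median share was 11.8% and 9.0%. Gata6 (ENSMUSG00000005836.10) lies on the plus strand of chromosome 18 from 11052064 to 11085635. The counts of these transcripts had log2 ratios of -0.28 for Gata6, -0.31 for Tbx20 and -1.13 for Meis1. Those of the protein-coding transcripts were 0.34, 0.64 and -0.51. In Gata6 and Tbx20 the classes thus differed in opposite directions, while in Meis1 both were lower in replicate 2. The second quantification, scaled here by the library sizes of the first, gave -0.26, -0.22 and -1.14 for retained introns. For protein-coding transcripts it gave 0.32, 0.63 and -0.48. The difference in intron-retaining RNA was common to most genes with such transcripts and not particular to these factors, and its part in the gene-level ratios was not tested beyond that split.

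**Figure D4:**
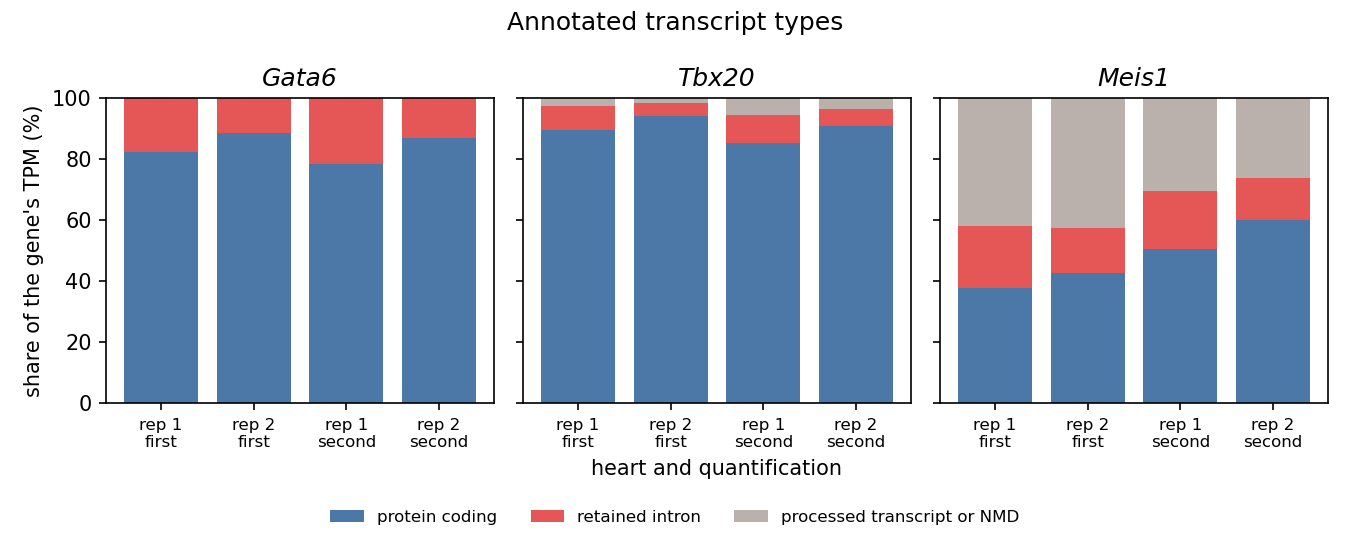
Share of the TPM of Gata6, Tbx20 and Meis1 in each annotated transcript type (protein coding in blue, retained intron in red, processed transcript or nonsense-mediated decay in grey), for each heart in each quantification. The red share is smaller in replicate 2 in all 3 genes and both quantifications, and in the first quantification Meis1 has the least protein-coding RNA, 37.7% and 42.7%.

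Several factors have an RNA on the opposite strand at or near their start. Of 11 annotated genes that overlap a factor or start within 10 kb of it, 6 reached a mean of 0.5 TPM. Hand2os1, a noncoding gene on the opposite strand that overlaps Hand2 (chromosome 8, 57281117 to 57324233), was at 101 and 89.2 TPM. It exceeded Hand2 by 3.04 and 3.05 times in the first quantification and by 4.15 and 4.13 times in the second. In TPM the ratio of the pair was nearly equal in both hearts, although its size depended on the quantification. By counts the log2 ratio of replicate 2 over replicate 1 was -0.24 (-0.33 to -0.16) for Hand2os1 and -0.06 (-0.15 to 0.03) for Hand2, intervals that did not overlap. At Gata6, 1010001N08Rik starts 503 bases from the Gata6 start on the opposite strand and overlaps it, and its level was 26.2 and 21.7 TPM. It was lower in replicate 2 where Gata6 was slightly higher. At Tbx5, Gm43050 starts 748 bases away on the opposite strand without overlap, and was at 7.02 and 6.01 TPM from 64 and 55 counts. The remaining 3 overlap Meis1 on its own strand. 2610001A08Rik was at 2.25 and 1.27 TPM, Gm37818 at 1.14 and 0.44, and 2900018N21Rik at 1.11 and 0.35. All 3 were lower in replicate 2 in these tables, as Meis1 was. They are of the annotated type TEC. Of all TEC transcripts with a mean of at least 10 counts, 88.2% were lower there, and 91.4% in the second quantification. The second quantification gave 2610001A08Rik at 1.90 and 2.01 TPM, and its counting interval in the first included 0 (-1.45 to 0.02). For the other two the direction was the same in both quantifications, and whether they hold reads of unspliced Meis1 RNA was not tested. Whether counting used the strand was not given in the sources used here, so reads where opposite-strand genes overlap cannot be told apart.

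**Figure D5:**
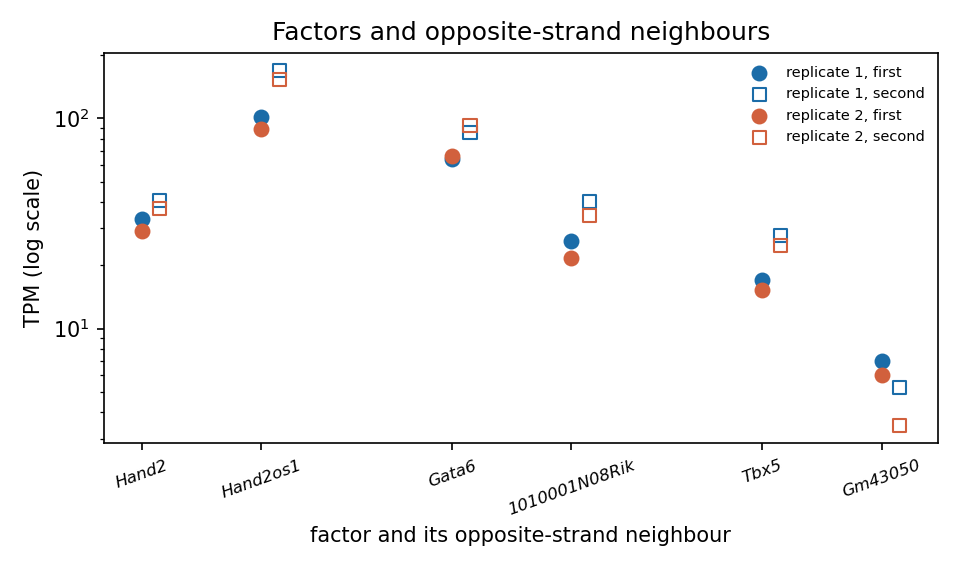
TPM on a log axis for Hand2, Gata6 and Tbx5 and the opposite-strand gene at each, in replicate 1 (blue) and replicate 2 (orange), with circles for the first quantification and squares for the second. Hand2os1 lies above Hand2 in every case, while 1010001N08Rik and Gm43050 lie below Gata6 and Tbx5.

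Cofactors that bind these factors were broadly present. Of 25, 24 were expressed, against 53.9% of protein-coding genes. Sall4, which falls below 1 TPM in replicate 2 (1.03 and 0.64), was the exception. Hopx, a homeodomain protein without DNA binding that acts on Srf, was highest at 186 and 189 TPM, and Mef2a followed at 101 and 108. Srf, a partner of Gata4 and Nkx2-5 at muscle genes, was the only cofactor past 2-fold, at 41.3 and 88.2 TPM and a log2 ratio of 1.25. The median of the cofactors was 0.02, and that of all filtered genes 0.00.

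Of 24 chamber genes known as targets of the factors, all 24 were expressed, with Myl2 at 8793 and 8144 TPM and Myh6 at 8663 and 7207.5 TPM the highest by mean. Actc1 lay above Myh6 in replicate 2, and in both hearts in the second quantification. The natriuretic peptides, both classical Gata4 and Nkx2-5 targets, were the only ones of the 24 past 2-fold, in opposite directions. Over all filtered genes 3.06% were past 2-fold. Nppa, secreted mainly by atrial muscle, was at 1620.4 and 665 TPM with a log2 ratio of -1.15, while Nppb was at 153 and 309 TPM with a ratio of 1.14. Gata4 and Nkx2-5 themselves differed by at most 0.12 on the same scale, and the part of any factor in the peptide differences was not tested. The median over the 24 genes was -0.02. In a fixed list of 10 genes of the early embryonic heart, 0 reached 1 TPM in both hearts, against 53.9% of protein-coding genes. Gata5 and Hand1 were the highest of them. The list leaves out Gata4, Nkx2-5 and Tbx5, which also form the heart field and were expressed here. Its 0 of 10 therefore does not stand for all early heart factors. Mesp1 was at 0.04 and 0 TPM, Fgf8 at 0.16 and 0, and Nkx2-6 had 0 counts in both.

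Listed factors nearest in mean log2 TPM, a likeness of level only over 2 hearts, were Tcf4 to Gata4 (94.2 TPM), Pbx2 to Tbx5 (15.5 TPM), Tbx3 to Tbx2 (5.98 TPM), Id1 and, almost as near, Mga to Hand2 (28.4 and 28.5 TPM) and Tcf21 to Meis1 (20.1 TPM). Gata6 and Nkx2-5 were nearest to each other, and the factor nearest to Tbx20 was Gata4. The lowest factors, Gata5 and Hand1, lay nearest Pbx4 (0.52 TPM) and Gata3 (0.43 TPM).

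For Gata4, Gata5, Gata6, Nkx2-5, Tbx5 and Hand2, the quantifications of the same libraries lay farther apart than the hearts did. The second gave mean levels of 154 TPM for Tbx20, 136 for Gata4, 89.1 for Gata6 and 85.4 for Nkx2-5. It gave 38.9 for Hand2, 27.0 for Meis1, 26.2 for Tbx5, 7.27 for Tbx2, 1.01 for Gata5 and 0.47 for Hand1. All 10 means were higher, as over all genes, where the median was 1.36-fold. Past 1.5-fold in both hearts was 1 of 10, Tbx5, at 1.63 and 1.62 times, against 29.4% of genes at a mean of at least 1 TPM.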

How the data were processed

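The members and gene lists were chosen with earlier results of these data known. Per the file headers, the first set of tables deposited by the authors, per gene and per transcript, gives expected counts and TPM under RSEM's column names, with bounds of a TPM interval whose level is not stated and which were not used. The authors' second transcript tables hold estimated counts and TPM (columns named as kallisto writes them), summed here per gene. Notes deposited beside the files give mm10 and GENCODE M21. Aligner, versions and settings are not given in the sources used here. Labels describe stranded libraries with reduced ribosomal RNA, made from 300 ng RNA with ERCC spike-ins.

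Expected counts were rounded, filtered (filterByExpr) and scaled (TMM) with edgeR 4.0.16 (R 4.3.3, prior count 2), and DESeq2 1.42.0 size factors were an alternative. Other steps used Python 3.11.15, pandas 2.3.3, NumPy 2.4.6 and SciPy 1.17.1. TPM ratios between hearts and between quantifications used a pseudocount of 0.1. ERCC took 0.588% and 0.545% of counts. The TMM-scaled count ratios were tested on simulated counts with changes of 2-fold or more. That check does not cover TPM ratios, transcript shares or the second quantification. No test across samples was run. PCR copies are not independent molecules, so intervals cover counting error only.

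Named genes were all 10 factors, the 2 highest of each list, list genes past 2-fold, neighbours at a mean of at least 0.5 TPM, leading transcripts, those with a share of at least 20% in both hearts, and the 3 list factors nearest in level. Not every gene meeting the rule is printed, and Gata2, Sall4, Meis2, Actc1, Myh8, Meis1-209 and the Tbx3 order were named after their values were seen. Promoter windows of 250 bases came from RefSeq for 5 of the 10 factors. Protein sequences were not analysed here.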

Additional observations from a re-analysis of the deposited data

How the results depend on the processing

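No paired analysis was possible because the 2 hearts form 1 group. Of the factors, 8 stayed expressed in the second quantification and in each heart alone, 9 at a TPM of at least 0.5 and 7 at 5. The 0 factors past 2-fold stayed at 0 under DESeq2 size factors, ERCC scaling, TPM ratios, the second quantification and no filter. They became 2 at 1.5-fold with TMM-scaled counts, of which Tbx20 was not past 1.5-fold by TPM or total-count scaling. The single factor that differed between quantifications became 0 when centred on the median of all genes and 0 at 2-fold, and 1 to 2 with 1 heart left out. Neighbours above 0.5 TPM rose from 6 to 12 at 50 kb. The leading transcript was kept in 8 of 10 factors in the second quantification and in 9 of 10 by share of counts or in each heart alone. Listed genes expressed numbered 80 of 116, and 82 at 0.5 TPM. Of 90 alternative log2 ratios, 76 stayed within counting error, as did 22 of 40 mean levels within 1 SD. The ratios without a filter could not move, since all 10 factors passed it. With 2 hearts, the level of either alone always lies within 1 SD of their mean, so those settings could not move either. Among the other mean levels, only those of Tbx20 and Meis1 in the second quantification stayed within 1 SD. Counting only protein-coding transcripts, an alternative chosen after seeing the data, changed no sign. Depth limits Hand1 and Gata5, and 2 values per SD limit every spread.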
